A study of Mus musculus with 12 samples.

Results

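A set of 9 genes that interferons are known to induce were followed in mouse brain after ischemic stroke, with and without added lactate. The genes were Ifit1, Ifit3, Isg15, Bst2, Ifitm3, Gbp2, Gbp3, Irf1 and Irf7, taken by symbol, and all 9 were found among the 31208 genes of the table. The list was chosen with earlier results of these data known. Brain RNA came from C57BL/6 mice of 8 weeks in 3 groups of 4: sham mice, mice with cerebral ischemia for 6 h that had received vehicle, and mice with cerebral ischemia for 6 h that had received lactate. Ischemia was produced by a filament that closed the middle cerebral artery, and male mice were used per the study's methods. Vehicle (saline) or lactate (D-lactate in the methods, only "lactate" in the labels) was injected into a brain ventricle on the day before. The sources used here do not say whether the sham mice had this injection, so ischemia, occlusion surgery and injection cannot be told apart in comparisons with sham. In lactate against sham, lactate is added to these, so a change with lactate there means ischemia and lactate together. Only lactate against vehicle sets lactate apart. The question was which genes responded to ischemia, and whether raised lactate altered that response.

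Interferons are secreted proteins, many of them made when cells sense foreign or misplaced nucleic acid. They bind receptors whose Janus kinases switch on transcription factors in the cell. Among these, the complex ISGF3 binds the interferon-stimulated response element (ISRE) near genes such as Ifit1 and Isg15, while many genes induced by interferon-gamma carry the gamma-activated site (GAS). In the brain, microglia, endothelial cells and astrocytes are all able to respond to interferons.

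RNA was read as full-length cDNA on a nanopore instrument, and each level below is in CPM, the reads of a gene per 1000000 reads of its mouse. Total counts ran from 6815920 to 10677224 per mouse, so that 1 read was worth 0.094 to 0.147 CPM, and the 9 genes were low, with 4 to 277 reads in a mouse. Neuron markers summed to 3709 to 5578 CPM in the 12 mice, as brain tissue should show. Neutrophil markers summed to 3.23 to 5.41 CPM in sham mice, 12.2 to 76.8 in vehicle-treated and 19.6 to 43.1 in lactate-treated mice, although Elane was at 0 in every mouse. Choroid plexus markers summed to 1841 CPM in vehicle-treated mouse 2 and to at most 18.6 in any other mouse, and vehicle-treated mouse 1 stood apart on the second principal component of all genes (-57.2, against -7.04 to 16.4 in the rest). Since the tissue was taken whole, fewer cells of a type and less RNA per cell cannot be told apart. The labels do not say how the libraries of a group were obtained beyond their replicate numbers, so p-values measure the spread between these libraries.

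The stretches around the start sites that hold the ISRE or GAS letters are shown for the 8 of the 9 genes that held one or the other. The genes were listed as known to be induced by interferons, so finding these letters is not independent of that choice. Promoter windows of 300 bases came from RefSeq on GRCm38, all 9 genes matched, and positions count from the first RefSeq start site. The ISRE was searched as GAAANNGAAA, which reads TTTCNNTTTC on the other strand, and the GAS as TTCNNNGAA, which reads the same on both strands. Capitals mark the ISRE matches, or in Irf1 the GAS match, and where ISRE matches overlap they run together.
Ifit1 (chr19:34640770-34640828, plus strand): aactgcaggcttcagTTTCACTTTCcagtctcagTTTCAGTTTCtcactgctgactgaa
Ifit3 (chr19:34583358-34583431, plus strand): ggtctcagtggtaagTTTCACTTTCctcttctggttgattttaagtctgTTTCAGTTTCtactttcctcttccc
Isg15 (chr4:156200860-156200911, minus strand): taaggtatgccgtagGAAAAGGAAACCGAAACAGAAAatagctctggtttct
Bst2 (chr8:71537572-71537617, minus strand): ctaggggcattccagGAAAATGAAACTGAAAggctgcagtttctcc
Ifitm3 (chr7:141010716-141010742, minus strand): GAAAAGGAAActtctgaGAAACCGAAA
Gbp2 (chr3:142620589-142620628, plus strand): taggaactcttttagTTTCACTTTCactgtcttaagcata
Gbp3 (chr3:142559984-142560029, plus strand): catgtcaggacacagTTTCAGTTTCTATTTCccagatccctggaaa
Irf1 (chr11:53769909-53769947, plus strand): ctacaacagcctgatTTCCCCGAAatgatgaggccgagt

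An ISRE match was present in the window of 7 of the 9 genes, against 3.99% of the 27025 genes with a RefSeq window. Isg15 held 3 overlapping matches, Ifit1, Ifit3, Bst2, Gbp3 and Ifitm3 held 2 each, and Gbp2 held 1, while 0.225% of 32851 windows held 2 or more. In 6 of these genes the matches lay before the RefSeq start site, from 156 to 30 bases upstream. By GENCODE, from which the gene positions below are taken, Gbp2 starts earlier, at 142620602, and its match lies just inside the gene. Ifitm3 differed, with its matches 3 to 29 bases after the RefSeq start. Irf1 held a GAS match 90 to 82 bases upstream and no ISRE match, Bst2 and Ifitm3 each held a GAS match that overlapped an ISRE match, and 8.3% of all windows held a GAS match. Irf7 held neither set of letters, which says only that they are not in this window. The letters are a description of the sequence and not evidence of binding.

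**Figure D1:**
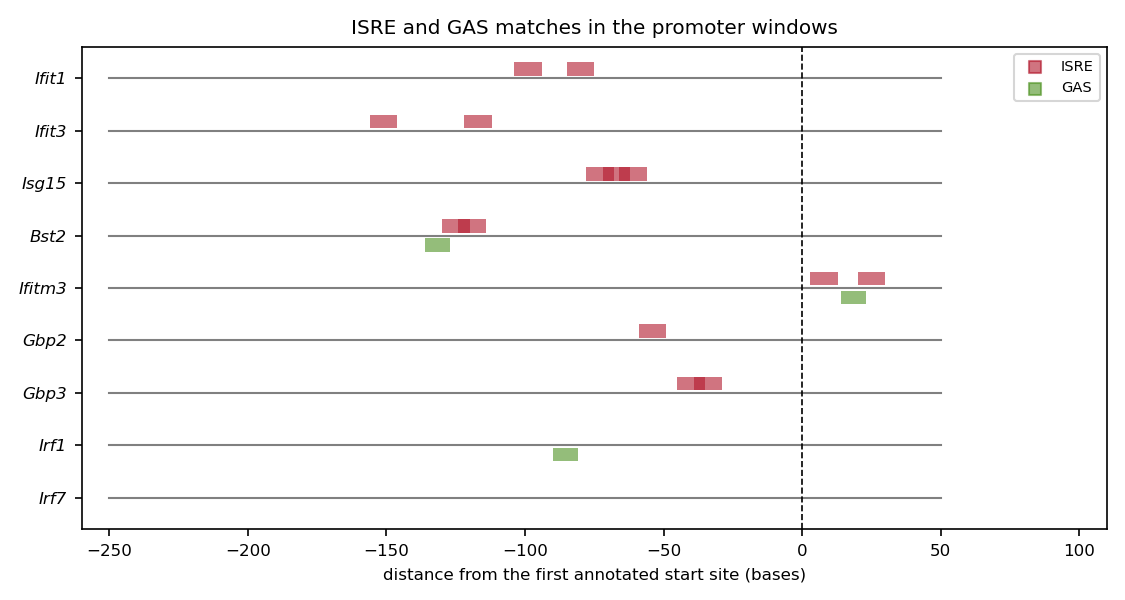
Position of ISRE matches (red, above each line) and GAS matches (green, below each line) in the 300-base promoter window of each gene, in bases from the first annotated start site (dashed line). The ISRE matches of 6 genes lie upstream of this RefSeq start, those of Ifitm3 lie just after it, and the Irf7 window holds no match.

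In ischemic mice with lactate, 5 of the 9 genes were called higher than in sham mice: Bst2, Irf7, Ifitm3, Isg15 and Ifit3, by 1.79-fold to 3.30-fold. A gene was called at a Benjamini-Hochberg adjusted p under 0.05 over all genes tested by edgeR's quasi-likelihood test and a fold change of at least 1.5. Of the 17262 genes tested in that comparison, 7.88% were called higher and 2.52% lower, and none of the 9 was called lower. Because the members were chosen with earlier results of these data known, shares of all genes are given here as description. They are no test of the list. After ischemia with vehicle, 0 of the 8 members tested were called against sham, where 1.29% of 17019 genes were called higher. Between lactate and vehicle, 0 of 9 were called higher, and 0% of 17419 genes were (0 genes). At an unadjusted p under 0.05 with the same fold limit, Ifitm3 alone passed for vehicle against sham (background 6.5%), 6 members passed as higher for lactate against sham (background 11.9%) and 1, Irf1, as lower (background 5.65%), and 5 passed for lactate against vehicle (background 3.76%). The median log2 fold change of the members was 0.23 with vehicle and 0.93 with lactate against sham, and 0.86 between lactate and vehicle, while over all genes tested it was 0.00, -0.03 and -0.03. Every lactate-treated mouse was above every sham mouse for 3 members (Bst2, Ifitm3 and Irf7) and for 10.4% of all genes tested. Every lactate-treated mouse was above every vehicle-treated mouse for 2 (Bst2 and Ifitm3, background 2.99%), and every vehicle-treated mouse was above every sham mouse for 2 (Ifit3 and Ifitm3, background 4.14%). The comparisons share mice, so these values are not independent of each other.

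**Figure D2:**
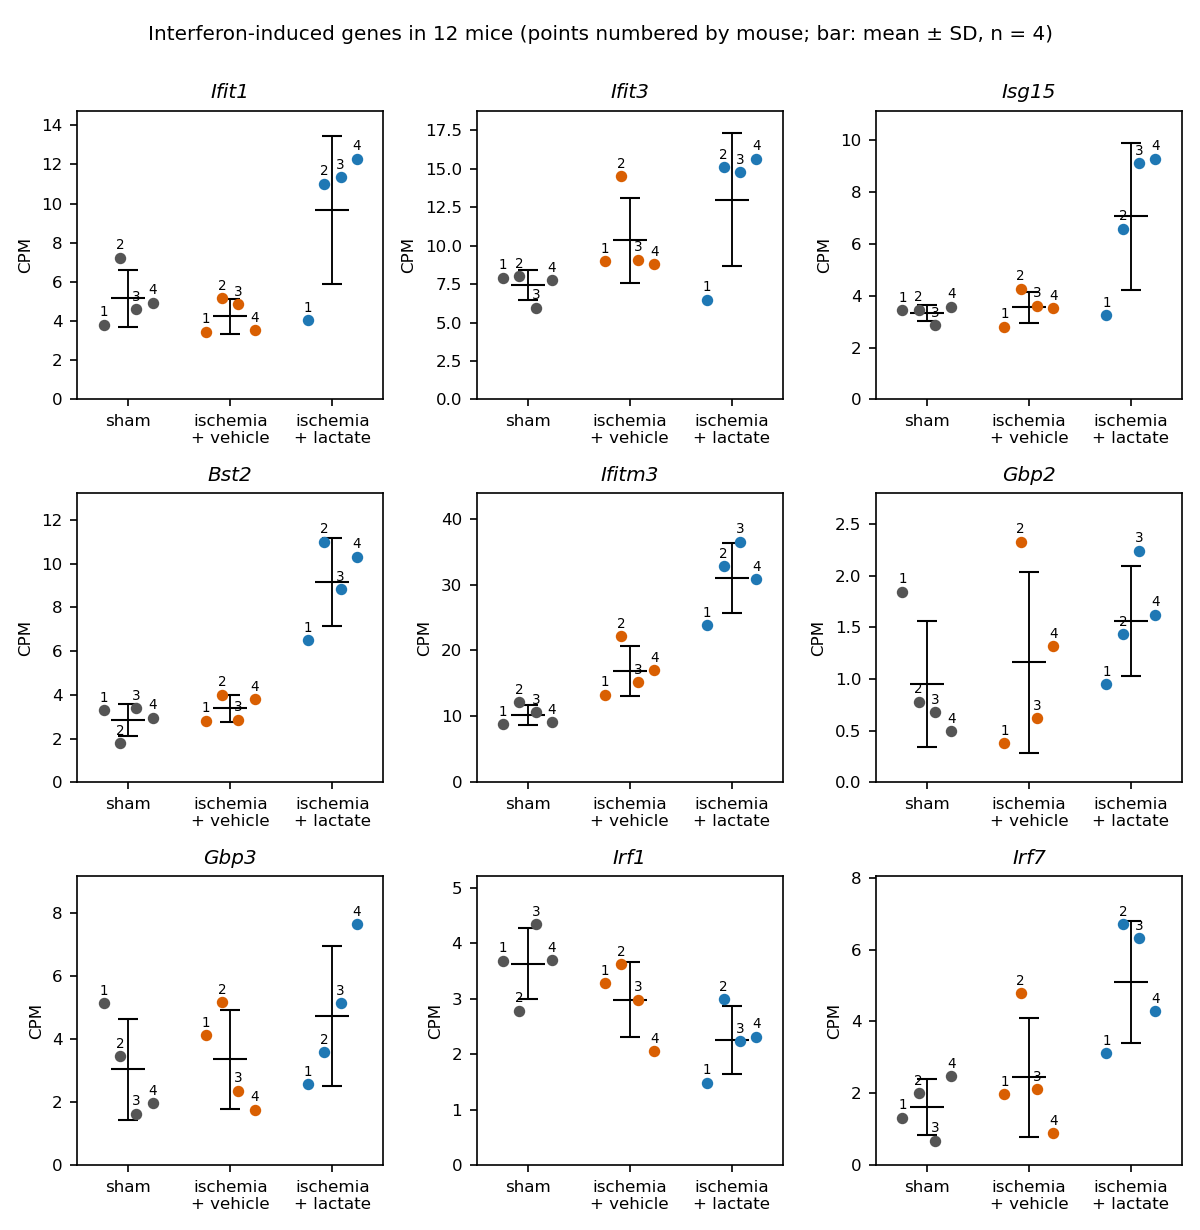
CPM of the 9 genes in each of the 12 mice, by group, with points numbered by mouse and bars for the mean ± SD of 4 mice. Bst2 and Ifitm3 are higher in every lactate-treated mouse than in any other mouse, and lactate-treated mouse 1 is the lowest of its group in every panel.

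Ifit1, Ifit3 and Isg15 act inside the cell against viral RNA and protein. Ifit1 (ENSMUSG00000034459, chr19:34640871-34650009, plus strand) encodes an RNA-binding protein that recognises viral RNA caps. Its level was 3.82, 7.25, 4.62 and 4.93 CPM in sham mice 1 to 4, 3.47, 5.18, 4.86 and 3.52 in vehicle-treated mice 1 to 4, and 4.06, 11.0, 11.3 and 12.3 in lactate-treated mice 1 to 4. Lactate-treated mice 2, 3 and 4 were above every other mouse, whereas mouse 1 lay among the sham mice, so the groups overlapped. The log2 fold change of Ifit1 was 0.93 ± 0.32 (SE) for lactate against sham with edgeR (adjusted p = 0.0745), 1.17 ± 0.32 for lactate against vehicle (adjusted p = 0.481) and -0.25 ± 0.27 for vehicle against sham (adjusted p = 0.744). None of these passed. Without lactate-treated mouse 1 the change against sham was 1.18 ± 0.24 (adjusted p = 0.0121), and Ifit1 then passed, as it also did without sham mouse 2.

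Ifit3 (ENSMUSG00000074896, chr19:34583531-34588731, plus strand) encodes a partner of the Ifit1 protein and lies 52139 bases from Ifit1. Ifit3 was at 7.91, 8.03, 5.98 and 7.77 CPM in the sham mice, at 8.99, 14.5, 9.09 and 8.80 in the vehicle-treated mice, and at 6.49, 15.1, 14.8 and 15.7 in the lactate-treated mice. Every vehicle-treated mouse was above every sham mouse, vehicle-treated mouse 2 was close to lactate-treated mice 2, 3 and 4, and lactate-treated mouse 1 was again among the sham mice. Ifit3 was 1.79-fold higher with lactate than in sham (log2 0.84 ± 0.25, edgeR adjusted p = 0.0452), and it was at 0.51 ± 0.23 for vehicle against sham (adjusted p = 0.342) and at 0.31 ± 0.29 for lactate against vehicle (adjusted p = 0.78). Among fits that left out 1 mouse this call held in 1 of 8, the fit without lactate-treated mouse 1 (log2 1.06 ± 0.18, adjusted p = 0.00494). The neighbouring copy Ifit3b is 97.8% identical over 97.4% of the Ifit3 transcript, so that reads could be assigned to either, and with the reads of both added the change was 0.78 ± 0.25 with an adjusted p of 0.0563.

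Isg15 (ENSMUSG00000035692, chr4:156199424-156200818, minus strand) encodes a ubiquitin-like protein that is joined to other proteins during an interferon response. Its level was 3.43, 3.46, 2.85 and 3.58 CPM in the sham mice and 2.81, 4.27, 3.61 and 3.52 in the vehicle-treated mice, and 3.25, 6.59, 9.10 and 9.28 in the lactate-treated mice. The sham and vehicle-treated mice covered nearly the same narrow range, lactate-treated mice 2, 3 and 4 were above it, and mouse 1 was inside it. Isg15 rose 2.16-fold with lactate against sham (log2 1.11 ± 0.30, edgeR adjusted p = 0.0275). Against vehicle its log2 fold change was 0.97 ± 0.32 (adjusted p = 0.496), and for vehicle against sham it was 0.12 ± 0.25 (adjusted p = 0.882). Leaving out 1 mouse at a time, Isg15 passed against sham in 2 of 8 fits, those without lactate-treated mouse 1 (1.34 ± 0.23, adjusted p = 0.00484) and without lactate-treated mouse 2.

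Bst2 and Ifitm3 encode membrane proteins, and they were the members in which every lactate-treated mouse was above every other mouse, which held for 2 of 9 members and for 1.77% of the 16913 genes tested against both groups. Bst2 (ENSMUSG00000046718, chr8:71534255-71537456, minus strand) encodes tetherin, which holds budding virus at the cell surface. Its level was 3.30, 1.78, 3.40 and 2.96 CPM in the sham mice, 2.81, 4.02, 2.86 and 3.82 in the vehicle-treated mice, and 6.49, 11.0, 8.84 and 10.3 in the lactate-treated mice. Sham and vehicle-treated mice overlapped, and the lowest lactate-treated mouse, mouse 1, was above the highest of both. Bst2 was 3.30-fold higher with lactate than in sham (log2 1.72 ± 0.25, edgeR adjusted p = 0.000917). Against vehicle it was 2.69-fold higher (log2 1.43 ± 0.25), which did not pass after adjustment with edgeR's quasi-likelihood test (adjusted p = 0.265). DESeq2 and edgeR's exact test did call it there, and adjusted p over all alternatives ran from 0.000829 to 0.715. For vehicle against sham the value was 0.28 ± 0.29 (adjusted p = 0.734).

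Ifitm3 (ENSMUSG00000025492, chr7:141009586-141010770, minus strand) encodes a small protein that blocks virus entry from endosomes. Ifitm3 was at 8.84, 12.2, 10.6 and 9.13 CPM in the sham mice, at 13.3, 22.1, 15.2 and 17.0 in the vehicle-treated mice, and at 23.8, 32.8, 36.5 and 30.8 in the lactate-treated mice. The 3 groups did not overlap, with sham lowest and lactate highest. It rose 3.09-fold with lactate against sham (log2 1.63 ± 0.17, edgeR adjusted p = 7.51e-05). The value for vehicle against sham was 0.76 ± 0.21 (adjusted p = 0.123), and that for lactate against vehicle was 0.86 ± 0.20 (adjusted p = 0.414). DESeq2, limma and edgeR's exact test called the first of these, and DESeq2 alone called the second. The longest coding transcripts are short for Ifitm3 (678 nucleotides), and also for Isg15 (756) and Bst2 (792). The authors discarded reads under a minimum length, a limit for all of these. The related gene Ifitm2 is 82.9% identical over 53.5% of the Ifitm3 transcript, so that a part of the reads may have been assigned to either gene.

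Gbp2 and Gbp3 encode guanylate-binding proteins, large GTPases that attack the membranes around intracellular microbes and are induced above all by interferon-gamma. Gbp2 (ENSMUSG00000028270, chr3:142620602-142638008, plus strand) was the lowest member in reads, 116 over the 12 mice. It was at 1.85, 0.780, 0.679 and 0.493 CPM in the sham mice, at 0.375, 2.33, 0.622 and 1.32 in the vehicle-treated mice, and at 0.947, 1.44, 2.24 and 1.62 in the lactate-treated mice. The groups overlapped throughout. Gbp2 did not reach the minimum level for vehicle against sham (at least 4 of the 8 mice with 1 CPM or more) and was tested only in the other comparisons, where lactate gave a log2 fold change of 0.75 ± 0.43 against sham (edgeR adjusted p = 0.284) and 0.44 ± 0.52 against vehicle (adjusted p = 0.832). Without that filter its value for vehicle against sham was 0.29 ± 0.57 (adjusted p = 0.863).

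Gbp3 (ENSMUSG00000028268, chr3:142560026-142573209, plus strand), 47392 bases from Gbp2, was at 5.14, 3.46, 1.63 and 1.97 CPM in the sham mice, at 4.12, 5.18, 2.37 and 1.76 in the vehicle-treated mice, and at 2.57, 3.59, 5.14 and 7.65 in the lactate-treated mice. The spread inside each group was as wide as the distance between groups. Its log2 fold changes were 0.67 ± 0.39 for lactate against sham, 0.46 ± 0.40 for lactate against vehicle and 0.19 ± 0.42 for vehicle against sham, with edgeR adjusted p of 0.295, 0.764 and 0.89. The last of these turned to -0.02 without sham mouse 3 and to -0.08 without vehicle-treated mouse 2. Related genes may share reads with both: Gbp3 is 80.5% identical to Gbp7 over 63.2% of its transcript, and Gbp2 is 83.4% identical to Gbp2b, which had 0 reads.

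Irf1 and Irf7 encode interferon regulatory factors, transcription factors of the same family, and their values differed in sign. Irf7 (ENSMUSG00000025498, chr7:141262706-141266481, minus strand) amplifies the production of type I interferon. Its level was 1.32, 2.01, 0.679 and 2.47 CPM in the sham mice, 1.97, 4.79, 2.12 and 0.880 in the vehicle-treated mice, and 3.11, 6.71, 6.33 and 4.29 in the lactate-treated mice. Each lactate-treated mouse was above each sham mouse, while vehicle-treated mouse 2 reached the lactate-treated range. Irf7 rose 3.16-fold with lactate against sham (log2 1.66 ± 0.37, edgeR adjusted p = 0.0111). The values of lactate against vehicle and vehicle against sham were 1.04 ± 0.43 (adjusted p = 0.536) and 0.61 ± 0.50 (adjusted p = 0.645), and without vehicle-treated mouse 2 they were 1.57 ± 0.40 and 0.08 ± 0.46. Neither passed without that mouse. For lactate against vehicle, edgeR adjusted p was 0.496 or more in each fit that left out 1 mouse. The gene overlaps Phrf1 on the other strand, and the sources used here do not say whether counting used strand.

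Irf1 (ENSMUSG00000018899, chr11:53770014-53778374, plus strand) is an early target gene of interferon-gamma, and its window held the GAS match printed above. Irf1 was at 3.69, 2.79, 4.35 and 3.70 CPM in the sham mice, at 3.28, 3.63, 2.99 and 2.05 in the vehicle-treated mice, and at 1.49, 2.99, 2.24 and 2.32 in the lactate-treated mice. It was the single member with a lower mean in the lactate-treated mice than in both other groups, and the groups overlapped. Lactate gave a log2 fold change of -0.64 ± 0.27 against sham (edgeR adjusted p = 0.152) and of -0.42 ± 0.31 against vehicle (adjusted p = 0.719), vehicle against sham was at -0.23 ± 0.27 (adjusted p = 0.769), and none of these passed. Gm17334 lies on the other strand of Irf1, with the same limit on strand.

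**Figure D3:**
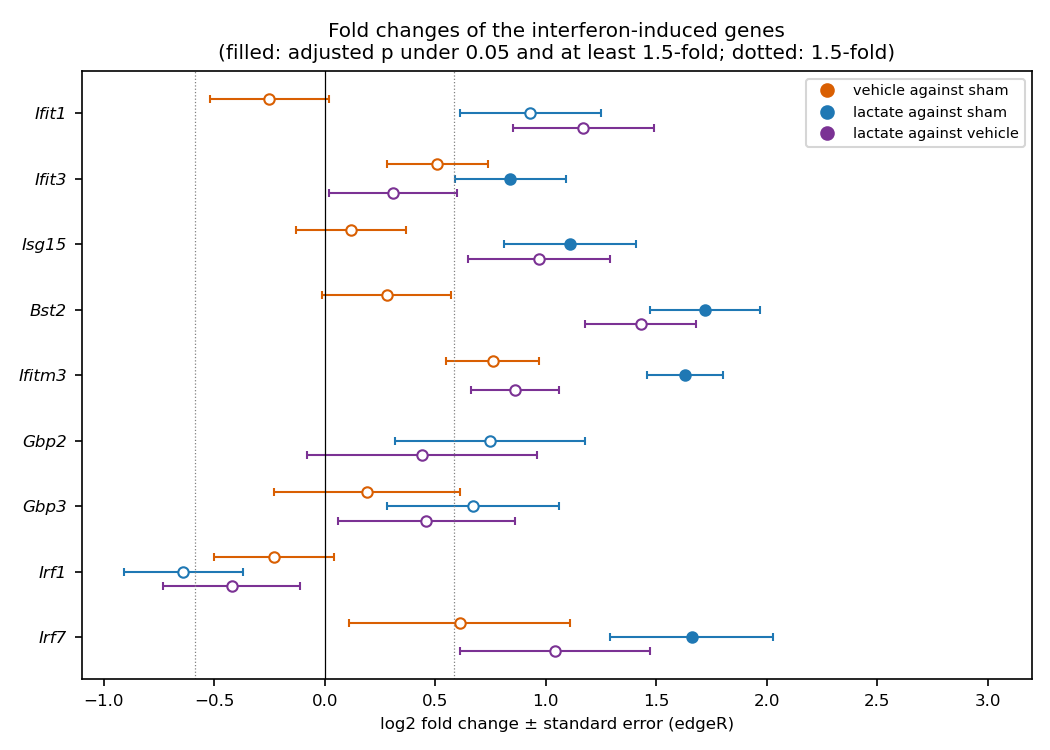
Log2 fold change ± SE of each gene for vehicle against sham (orange), lactate against sham (blue) and lactate against vehicle (purple), from edgeR's quasi-likelihood fits, with filled points for genes that passed and dotted lines at 1.5-fold. The 5 filled points all belong to lactate against sham, and Gbp2 has no orange point because it was below the filter there.

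The calls differed in how much they rested on single mice. Irf7, Ifitm3 and Bst2 passed for lactate against sham in 18 of 18 alternatives, which included each fit that left out 1 mouse. Isg15 passed in 12 of 18 and Ifit3 in 9 of 19. Ifit1 passed in 5 of 18. The number of members called for lactate against sham was 3 without sham mouse 1, 3 or 4 or without lactate-treated mouse 3 or 4, namely Bst2, Ifitm3 and Irf7 each time, and 6 without lactate-treated mouse 1.

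The order of the mice within a group was shared by all members for 2 mice. Lactate-treated mouse 1 was the lowest of its group for 9 of 9 members, and over the 18134 genes with enough reads it was the lowest for 28.3%. Its level was 0.351 times the mean of the other lactate-treated mice for Ifit1, 0.428 times for Ifit3 and 0.39 times for Isg15, and 0.713 times for Ifitm3. Vehicle-treated mouse 2 was the highest of its group for 9 of 9 members, against 20.4% of all genes, by 1.27 times (Bst2) to 3.02 times (Gbp2) the mean of the other vehicle-treated mice. In the sham group no mouse was the lowest or the highest for more than 4 of the 9 members. No test was made of these patterns, since the mice were singled out after their values were seen. Summed monocyte markers were 3.65 CPM in lactate-treated mouse 1 and 7.90, 8.57 and 11.6 in the others of its group, and 7.64 in vehicle-treated mouse 2 against 2.64 to 5.73 in the others of that group. None of the 6 monocyte markers was at 0 in all mice, and sham mice ranged from 2.11 to 3.33. Summed microglia markers were 214 CPM in lactate-treated mouse 1 and 212 to 233 in its group, 135 to 214 in the vehicle-treated mice and 220 to 239 in sham mice. Summed astrocyte markers were 1014, 971.4, 996.1 and 959.7 CPM in lactate-treated mice 1 to 4. They were 793.6 to 871 in the vehicle-treated and 591.7 to 889.4 in the sham mice. As for Bst2 and Ifitm3, every lactate-treated mouse was above every other mouse. Lactate-treated mouse 1 was the highest of its group for these sums and the lowest for both genes. Summed endothelial markers were 174, 179, 195 and 219 CPM in lactate-treated mice 1 to 4, above the 152 to 158 of the sham mice. They were 169, 185, 136 and 165 in vehicle-treated mice 1 to 4. For these sums too, lactate-treated mouse 1 was the lowest and vehicle-treated mouse 2 the highest of its group. None of the 6 astrocyte and 6 endothelial markers was at 0 in all mice. The part of these marker sums in the members' levels, and that of the choroid plexus markers in vehicle-treated mouse 2, was not tested.

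**Figure D4:**
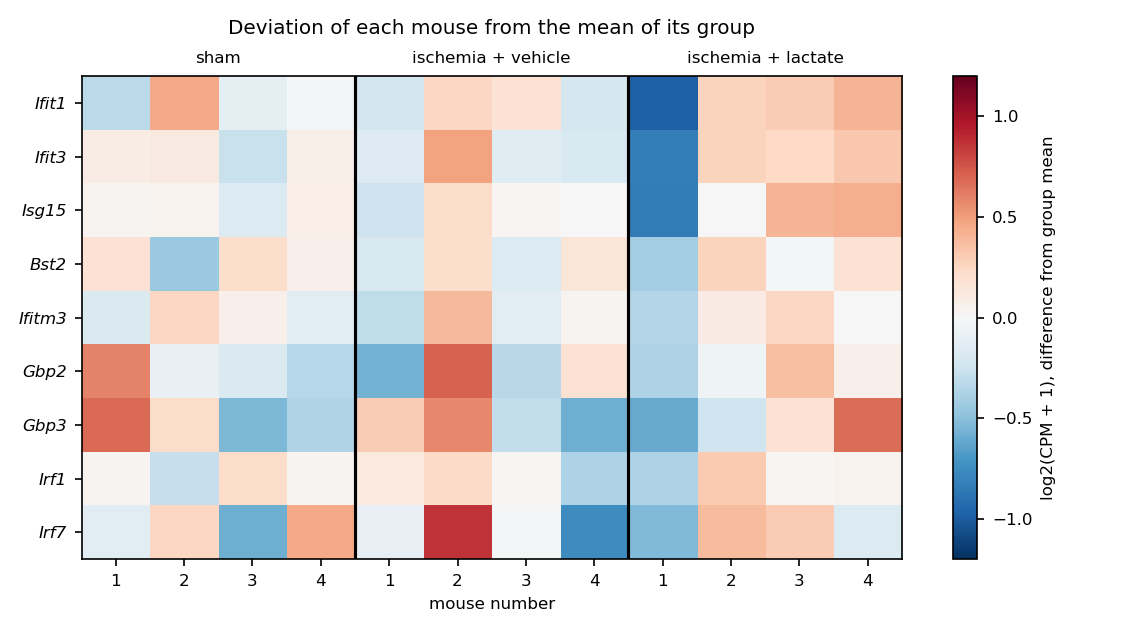
Difference of each mouse from the mean of its own group in log2(CPM + 1), for the 9 genes (rows) and 12 mice (columns), from blue (below) to red (above). The column of lactate-treated mouse 1 is blue and that of vehicle-treated mouse 2 is red in all 9 rows.

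Ifit1, Ifit3 and Isg15 tracked each other most closely. With each group centred on its mean, Pearson's r of log2(CPM + 1) over 12 mice was 0.86 for Ifit1 with Isg15, 0.89 for Ifit3 with Isg15 and 0.85 for Ifit1 with Ifit3, and it was 0.11 for Bst2 with Irf7. These are descriptions, as the points share libraries and the high values rest in part on lactate-treated mouse 1. The genes of the table whose pattern over the 12 mice was most like the mean of the members, among 13519 candidates, were Fcrls (r = 0.893), Nupr1 (r = 0.884), Fcer1g (r = 0.883), Bcl2a1a (r = 0.874) and Ly86 (r = 0.865). Fcrls is a receptor-like gene of microglia, and Fcer1g encodes a signalling chain of Fc receptors. Fcrls was at 55.6 to 67.1 CPM in the sham mice, at 67.8 to 78.7 in the vehicle-treated mice, and at 79.9, 123, 119 and 114 in lactate-treated mice 1 to 4. By Spearman's rank correlation the closest genes were instead B2m, Rps12, Adam9, Rpl24 and Tyrobp, so the choice of measure decided which genes were named.

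The wider interferon pathway was read from lists of 117 further genes, of which 62 had enough reads to be tested in each comparison, not all the same genes. The ligands were barely detected. Of 11 listed (Ifnb1, Ifna1, Ifna2, Ifna4, Ifna5, Ifna6, Ifng, Ifnl2, Ifnl3, Ifne and Ifnk), 8 had 0 reads in all 12 mice, and Ifng, Ifnl2 and Ifnk had 3 reads between them. A count of 0 allows up to 0.281 to 0.440 CPM in a mouse, taken as 3 reads and covering counting error only, so low interferon mRNA was not detectable at this depth.

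The receptors and the signalling proteins below them mostly did not pass. Of 6 receptor genes 5 were tested, with a median log2 fold change against sham of 0.01 with vehicle and 0.00 with lactate. Ifnar2, Ifngr1 and Ifngr2 did not pass for lactate against sham (0.11 ± 0.23, 0.26 ± 0.17 and 0.00 ± 0.27), and neither did Ifnar1 (-0.53 ± 0.18, edgeR adjusted p = 0.0729). Il10rb, a chain shared by the receptors of interferon-lambda and interleukin-10, was lower with lactate than in sham by 0.94 ± 0.24 (edgeR adjusted p = 0.0222). It was at 3.69, 4.68, 4.62 and 4.69 CPM in the sham mice and at 2.06, 4.27, 3.36 and 2.64 in the vehicle-treated mice. With lactate it was at 2.70, 2.28, 2.11 and 1.97. The call against sham was lost without sham mouse 3 or 4 or lactate-treated mouse 3 or 4. Lactate against vehicle was at -0.46 ± 0.30 (adjusted p = 0.689) and did not pass. Ifnlr1 was below the filter. The kinase genes Jak1, Jak2 and Tyk2 and the ISGF3 subunit genes Stat2 and Irf9 were all tested, and 0 passed in any comparison with edgeR's quasi-likelihood test, DESeq2, limma or edgeR's exact test, or at an unadjusted p with the same fold limit. For lactate against sham Jak1 was at -0.19 ± 0.14, Jak2 at 0.33 ± 0.18, Tyk2 at -0.38 ± 0.20, Stat2 at 0.15 ± 0.24 and Irf9 at 0.01 ± 0.28.

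Among the other interferon-induced genes, a few passed and most did not. Of 43 further antiviral genes listed, 25 were tested for lactate against sham, 3 rose and 0 fell, with a median log2 fold change of 0.48. Over all pathway lists 4 of 62 genes were called higher, a share near the 7.88% of all genes tested. The 3 were Ifi27l2a, Ifitm1 and Ifitm2. Ifi27l2a, a strongly interferon-inducible gene, was at 3.03, 5.91, 1.90 and 0.740 CPM in the sham mice, at 9.27, 8.68, 8.22 and 7.34 in the vehicle-treated mice, and at 8.11, 28.3, 23.6 and 29.8 in the lactate-treated mice. All ischemic mice were above sham. Of all genes tested, every vehicle-treated mouse was above sham in 4.14% and every lactate-treated mouse in 10.4%. Lactate-treated mouse 1 lay inside the vehicle-treated range, as it lay inside the sham range for Ifit1, Ifit3 and Isg15. Against sham its log2 fold change was 2.95 ± 0.48 with lactate (edgeR adjusted p = 0.00199) and 1.54 ± 0.42 with vehicle (adjusted p = 0.121). Lactate against vehicle was at 1.40 ± 0.33 (adjusted p = 0.42).

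Ifitm1 and Ifitm2 belong to the same family as Ifitm3. Ifitm1 was at 5.01, 13.6, 8.28 and 13.6 CPM in the sham mice, at 11.3, 14.9, 12.4 and 27.3 in the vehicle-treated mice, and at 36.8, 33.1, 37.1 and 35.5 in the lactate-treated mice. Ifitm2 was at 13.1, 10.7, 12.4 and 11.1 CPM, then at 14.5, 17.4, 17.1 and 20.7, and at 23.8, 21.8, 23.6 and 23.7 in the same order. In both genes every lactate-treated mouse was above every other mouse, and lactate-treated mouse 1 was not low. This order held for 2 of the 60 listed genes tested against both groups and for 1.77% of the 16913 genes so tested. With lactate against sham the log2 fold change was 1.83 ± 0.25 for Ifitm1 (edgeR adjusted p = 0.000669) and 1.01 ± 0.13 for Ifitm2 (adjusted p = 0.000509), and both passed in 18 of 18 alternatives. For lactate against vehicle the values were 1.10 ± 0.25 (adjusted p = 0.385) and 0.40 ± 0.16 (adjusted p = 0.534), and neither passed.

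The remaining lists held single calls. Of 16 further interferon-induced GTPases 9 were tested against sham in each comparison, 7 had a negative value in each, and Gbp4 alone passed, as lower, where 0.182% of all genes were called lower for vehicle against sham. Gbp4 was at 6.73, 4.24, 3.80 and 5.18 CPM in the sham mice, at 1.499, 1.04, 1.74 and 1.76 in the vehicle-treated mice, and at 0.135, 0.479, 0.923 and 1.86 in the lactate-treated mice. Against sham the log2 fold change of Gbp4 was -1.68 ± 0.30 with vehicle (edgeR adjusted p = 0.0135) and -2.47 ± 0.45 with lactate (adjusted p = 0.00421). The former did not pass without sham mouse 1 or 4, and the latter passed in 18 of 18 alternatives. Gbp2 and Gbp3 of the same family did not pass. For lactate against sham, Gbp4 was above 1 CPM in the 4 sham mice and in 1 lactate-treated mouse. It met the filter there through the sham mice, in which it was high, so that the lactate call is no evidence of a change. For vehicle against sham, every mouse was above 1 CPM. Of 13 sensors and adaptors 7 were tested in each comparison with sham, not all the same genes, and 1 was called in each. Myd88, the adaptor of most Toll-like receptors, was higher with lactate than in sham (1.28 ± 0.30, edgeR adjusted p = 0.014). It was at 1.06, 1.12, 0.951 and 1.73 CPM in the sham mice and at 1.31, 1.43, 1.37 and 3.23 in the vehicle-treated mice. With lactate it was at 2.57, 3.23, 3.17 and 2.67. Lactate against vehicle was at 0.67 ± 0.35 (adjusted p = 0.601) and did not pass. Tlr7, a receptor for single-stranded RNA, was at 0.132, 0.446, 0.543 and 0.0 CPM in the sham mice and at 3.37, 1.30, 1.87 and 1.61 in the vehicle-treated mice. With lactate it was at 4.33, 0.958, 0.264 and 1.62, below the filter for lactate against sham, where it was not tested. It was called for vehicle against sham, but it entered the test only through the vehicle-treated mice, in which it was high, so that this call is no evidence of a change. It held in 0 of the 4 fits that left out 1 sham mouse. Of the further regulatory factors (4 tested of 6), the feedback inhibitors (2 of 4) and the interferon-gamma chemokines and antigen presentation genes (4 of 12), 0 passed for lactate against sham with edgeR, DESeq2 or limma, or at an unadjusted p.

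**Figure D5:**
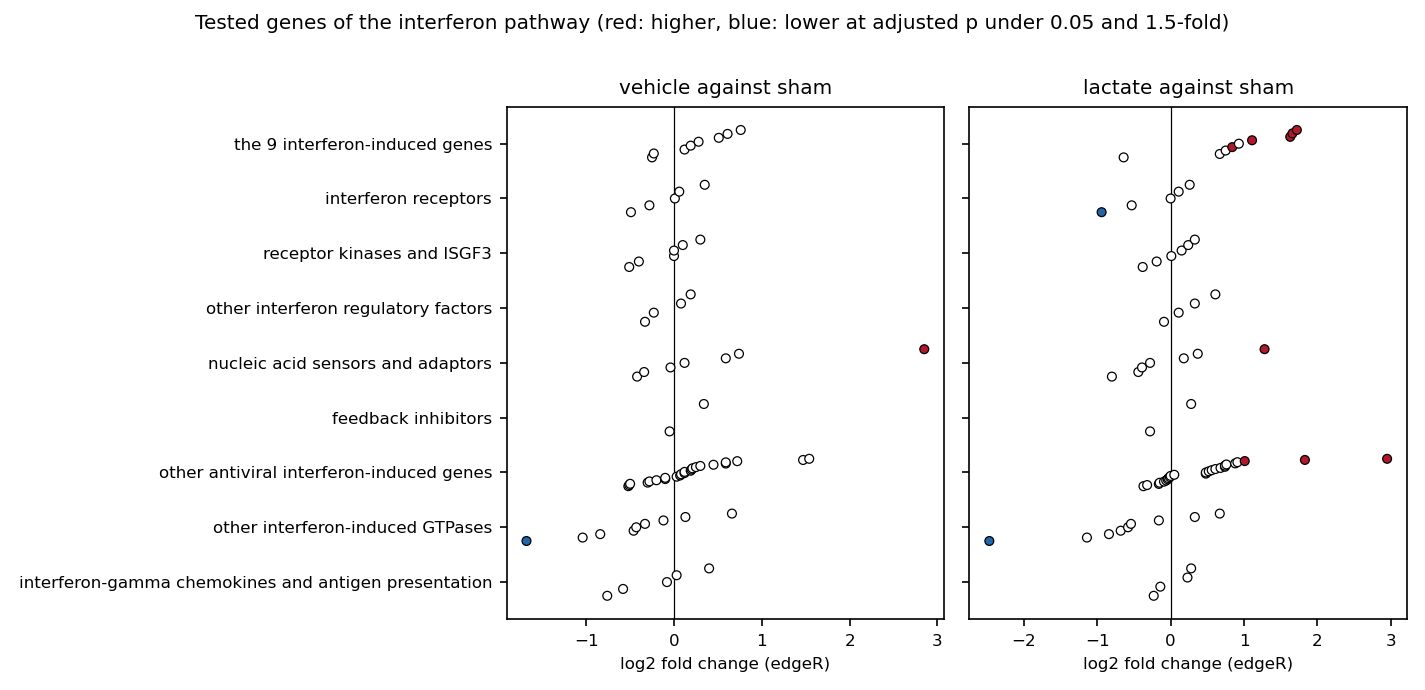
Log2 fold change of each tested gene of the interferon pathway by list, for vehicle against sham (left) and lactate against sham (right), with red for genes called higher and blue for genes called lower. Each panel holds 62 tested genes of the lists, not all the same. Of these, 1 was called higher and 1 lower with vehicle, and 4 higher and 2 lower with lactate. The 9 interferon-induced genes in the top row have 5 red points with lactate.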

How the data were processed

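Groups and mouse numbers were taken from the sample labels. The authors read full-length cDNA on a nanopore instrument, removed short, low-quality and ribosomal reads, mapped with minimap2 and polished isoforms with pinfish. The authors deposited whole-number counts per gene without normalization, and deposited CPM values that equal each count over the total of its mouse. The submitters' processing notes name GRCm38 and DESeq 1.10.1, and how reads were counted and with which annotation is not given in the sources used here. The deposited P values and log2 fold changes of the authors were not used. Of the table, 4 lines without a gene were left out, and 0 per-sample columns.

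The counts of each pair of groups were fitted by edgeR 4.0.16 (R 4.3.3) with TMM factors and its quasi-likelihood test, in genes with 1 CPM or more in 4 or more of 8 mice, p-values were adjusted by Benjamini-Hochberg over the genes in each fit, and the fit was checked on simulated counts. A standard error is the log2 fold change over the root of its F statistic. Alternatives used DESeq2 1.42.0, limma 3.58.1 (voom), other scalings, filters and limits, and each mouse left out. Positions are from GENCODE on GRCm38, similar transcripts from blastn 2.17.0, and promoters from RefSeq on GRCm38. Tables and plots were made in Python 3.11.15 (pandas 2.3.3, numpy 2.4.6, matplotlib 3.10.9).

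The members and lists were chosen with earlier results of these data known. Named were all members, the listed ligands, receptors, kinases and ISGF3 subunits (1 of which is not reported here), at most 4 called genes of each other list, and the 5 genes most like the members' mean.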

Additional observations from a re-analysis of the deposited data

Results flagged for a closer look

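Of the 27 groups of 4 mice formed by the 9 genes, 4 held a mouse far from the others by Dixon's ratio of the gap to the range, and chance flags about 1 in 20 groups. Ifit1 was lowest in lactate-treated mouse 1, at 4.06 CPM. Ifit3 was lowest in lactate-treated mouse 1, at 6.49 CPM, highest in vehicle-treated mouse 2, at 14.5 CPM, and lowest in sham mouse 3, at 5.98 CPM. The cause was not tested.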

How the results depend on the processing

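Of 467 member fold changes recomputed under an alternative, 438 kept their direction and their side of the limits, 16 no longer passed, 11 newly passed and 2 changed sign, both Gbp3 for vehicle against sham (-0.02 without sham mouse 3, -0.08 without vehicle-treated mouse 2, and up to 0.53 without sham mouse 1). For vehicle against sham, 0 members were called, and 1 with DESeq2, limma, edgeR's exact test or an unadjusted p. Listed pathway genes called higher there numbered 1, and 2 with DESeq2, limma or the exact test, 5 at an unadjusted p, and 0 with all 12 mice in one fit; those called lower numbered 1, and 0 with all 12 mice in one fit. For lactate against sham, the unadjusted p added 1 lower member, and pathway genes called higher went from 4 to 9 without a filter and to 7 at an unadjusted p, those called lower from 2 to 4 at an unadjusted p and to 1 at 2-fold. For lactate against vehicle, members called went from 0 to 2 with DESeq2, 1 with the exact test and 5 at an unadjusted p, and pathway genes from 0 to 2, 2 and 5.

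Leaving out 1 mouse gave 3 to 6 members for lactate against sham and 0 to 0 in the other comparisons. Pathway genes called higher ranged from 0 to 1 for vehicle against sham (0 without any 1 vehicle-treated mouse or without sham mouse 1, 3 or 4) and from 4 to 6 for lactate against sham. Those called lower ranged from 0 to 1 (0 without sham mouse 1 or 4) and from 1 to 3 (1 without sham mouse 3 or 4 or lactate-treated mouse 3 or 4).

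Same-numbered mice were different animals, and the main fits did not pair them. Their deviations correlated at -0.170 to 0.176. Differently numbered mice were not compared in this way, so whether a number marks a shared batch was not tested. With the number as a replicate block, 6 members were called for lactate against sham and 0 in the other comparisons, and the pathway gene called higher for vehicle against sham, Tlr7, was lost (0). The causes were not tested. With 4 to 18 reads of Gbp2 in a mouse and 3 reads of all listed ligands together, depth limits what can be said of both.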
